A study of Canis lupus familiaris with 11 samples.

Results

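The comparison described here lies inside one treatment. Stromal vascular fraction (SVF) from dogs, the pellet of stromal, vessel and immune cells that digested fat leaves behind, was given light-activated platelet-rich plasma (PRP) and kept at 37 °C for 6 h. For each of dogs 2 and 3 there were 2 such samples, numbered B2 and B1. The question is which genes differed between samples that carry the same treatment label. The titles gave the members: 4 of the 11 arrays of the series, PRP B2 (n = 2, 1 per dog) and PRP B1 (n = 2, 1 per dog). The labels do not say what the number stands for, so it may mark a separate preparation, a portion of one digest, a run or a day.

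Both groups came from visceral fat of neutered male German Shepard mix dogs aged 10 years, and 1 company digested all of it by a method of its own. That company also added the PRP, which was its own product, before the samples travelled to the laboratory that incubated them. The titles name 2 dogs, whose animal descriptions are word for word the same. Another 4 arrays, SVF A2 and SVF A1 of the same dogs, had neither PRP nor incubation and carry the same pair of numbers. They are used only to ask whether a number difference was also there without PRP. The other 3 arrays, from a 6-year-old Labrador, were not used. Each PRP group holds cells, PRP and incubation together, so what PRP alone did cannot be told apart from the incubation, and the source of a transcript within the mixture was not measured.

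PRP is plasma concentrated for platelets, which release growth factors and chemokines when activated. Macrophages, mast cells and endothelial cells in the SVF can answer danger signals through NF-kappaB with cytokines such as interleukin 1 and colony-stimulating factors. A further pair of programmes deals with foreign chemicals. The aryl hydrocarbon receptor (AHR) is a cytosolic sensor that, once bound by a ligand, pairs with ARNT in the nucleus and switches on CYP1A1, CYP1B1 and its own repressor AHRR. NRF2 is released from KEAP1 under oxidative or electrophilic stress and raises glutathione and thioredoxin enzymes.

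Values are log2 expression levels of 32391 array features, so a difference of 1 is a 2-fold ratio. A gene was represented by 1 feature, giving 15947 genes in all. The 4 PRP arrays had medians between 6.76 and 6.77. Markers of the labelled tissue were present: 23 of 24 stromal markers, 26 of 29 endothelial markers and 19 of 21 macrophage markers lay above the array median on all 4 PRP arrays. Array number limits the precision, since each dog has 1 array per number and the fit has 1 residual degree of freedom. Nothing says that the samples came from separate digests, so each p-value covers only how far these samples spread, and that spread may be technical. In these bulk samples fewer cells of a type and less RNA per cell cannot be told apart.

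Among the largest differences between B2 and B1 were those in CYP1A1, in cystine and thioredoxin genes, in cytokines and matrix proteases, and in an endothelial secreted protein, all higher in B2, and in several genes known from white blood cells, such as CD180, BTK and CD3G, lower in B2. White blood cell genes had no single direction. T and NK, B and plasma, and neutrophil marker lists had members both ways, with medians of -0.06, 0.04 and 0.03. No feature passed an adjusted p of 0.05 (limma with the dog as a block, Benjamini-Hochberg over all features, 0% called). The smallest adjusted p was 0.196, shared by 154 features. An unadjusted p under 0.05 was reached by 4491 features, 2352 higher and 2139 lower in B2, where 5% of those tested is 1620. The genes below are therefore described by their values, and none of them passed the test in this fit.

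That call depends on which features are tested. When the fit was limited to the 16143 features whose mean over the 4 arrays lay above the median of all values, a setting chosen after the results were seen, 348 features passed (157 higher and 191 lower in B2). That filter also admits features that clear it through the group where they are high. Of the 348, 39 higher in B2 had a B1 mean not above the median, CYP1A1, BAIAP2L1 and ESM1 among them, and 36 lower in B2 had a B2 mean not above it. Both group means were above it for the other 273. The 348 features included 103 genes higher in B2 (1.01% of the genes in that fit) and 141 genes lower in B2 (1.38%). Leaving out 1 PRP array leaves the PRP difference to the other dog's pair of arrays. Counts of passing features from such fits are listed only under the processing alternatives, and no result here rests on them.

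The pair of dogs repeated much of the difference. Over the 15947 genes, 68.7% had the same sign in both dogs, with a Pearson r of 0.597 and a Spearman rho of 0.528 between the dogs' differences. This correlation is across genes, which are not independent replicates. A difference of at least 2-fold in both dogs in the same direction was found for 104 genes higher in B2 (0.652% of genes) and 67 genes lower in B2 (0.42%), and for 0 genes in opposite directions. The B1 mean lay below the array median for 66 of the 104 and 4 of the 67, against 5669 of all 15947 genes. Ratios of those 66 therefore rest on low B1 levels. Dog 3 differed more between its samples than dog 2, with 755 genes against 293 genes at least 2-fold apart.

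**Figure D1:**
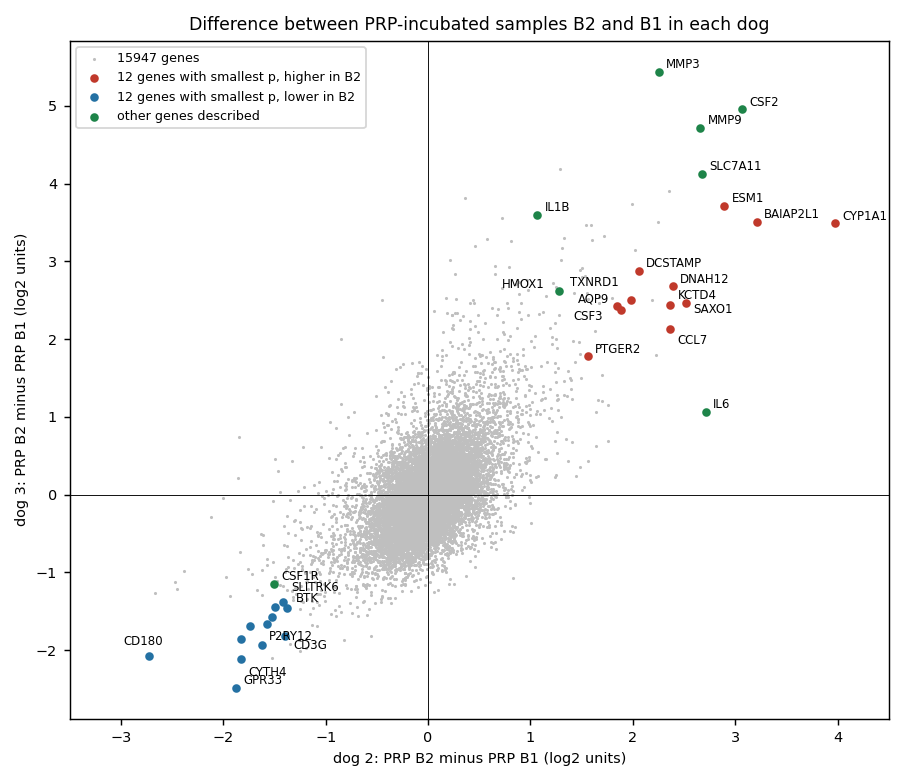
Each point is 1 of 15947 genes, placed by its PRP B2 minus PRP B1 difference in dog 2 (x axis, log2 units) and in dog 3 (y axis, log2 units). Red (higher in B2) and blue (lower in B2, 7 of them labelled) mark, per direction, the 12 genes with the smallest p-values under the naming rule. That rule asks for the same sign in both dogs, a mean difference of at least 1 log2 unit and a highest array above its median. Drawn in green are 8 further genes described in the text. CYP1A1 lies farthest to the right and MMP3 highest, while no gene lies beyond 1 unit in opposite directions.

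CYP1A1, the monooxygenase that oxidizes polycyclic aromatic compounds, had levels of 9.49 and 8.51 in B2 of dogs 2 and 3, against 5.52 and 5.02 in B1. The groups did not overlap, and both B1 levels lay below the array median. The difference was 3.73 ± 0.19 log2 units (moderated SE, n = 2 dogs), or 13.3-fold (limma, adjusted p = 0.196). Here and below the SE is limma's, drawn toward a spread shared by all features. It is not the spread between the 2 dogs. Without PRP or incubation CYP1A1 was at 5.47 and 4.66 in SVF A2 and at 5.93 and 4.87 in SVF A1, so only the B2 arrays stood out among the 8 arrays.

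The receptor's targets AHRR, TIPARP and CYP1B1 were also higher in B2, by less. AHRR, the repressor of the receptor, was at 6.53 and 7.97 in B2, against 5.89 and 6.21 in B1. TIPARP, an enzyme that ADP-ribosylates the receptor and limits its activity, was at 11.99 and 12.76 in B2, against 11.36 and 12.12 in B1. CYP1B1, a cytochrome of steroid and xenobiotic oxidation, was at 9.52 and 11.33 in B2, against 9.12 and 10.55 in B1. For TIPARP and CYP1B1 the dogs differed as much as the samples, and B2 was above B1 within each dog. The differences were 1.20 ± 0.31 for AHRR, 0.64 ± 0.15 for TIPARP and 0.59 ± 0.18 for CYP1B1 (SE, log2 units).

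The large amino acid transporter SLC7A5 was higher in B2 by 1.41 ± 0.17, with levels of 9.65 and 10.42 in B2, against 8.41 and 8.84 in B1. IDO1, which turns tryptophan into kynurenine, a known AHR ligand, was higher by 0.74 ± 0.17 at low levels of 5.16 to 6.47. The other tryptophan dioxygenase, TDO2, differed by 0.10 ± 0.16.

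The receptor itself and ARNT did not share that direction. AHR itself was at 11.19 and 11.31 in B2, against 11.43 and 11.67 in B1, a difference of -0.30 ± 0.15. ARNT, its nuclear partner, differed by -0.25 ± 0.16 and its chaperone HSP90AB1 by 0.34 ± 0.16. NFE2L2, which encodes NRF2, differed by 0.11 ± 0.15. CYP1A2 differed by 0.33 ± 0.17, UGT1A6, a glucuronosyltransferase, by 0.08 ± 0.15 and ALDH3A1, an aldehyde dehydrogenase, by 0.06 ± 0.17. All 3 lay between 4.15 and 5.37 on the PRP arrays, below the array medians. The sign of UGT1A6 and ALDH3A1 turned with the normalization. LRRC25, a leucine-rich repeat protein of myeloid cells, was lower in B2 by 0.80, with an SE of 0.24.

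Of the 15 AHR list genes measured, 12 had a higher mean in B2. An unadjusted p under 0.05 was reached by 6 higher genes, where 6.87% of all genes did so, and by 1 lower gene, where 6.78% did. CYP1A1 and SLC7A5 were 2-fold higher in both dogs, where 0.652% of all genes were. The list median was 0.33, against -0.03 over all genes, and was 0.22 in dog 2 and 0.23 in dog 3. The same list had a median of -0.02 for A2 minus A1 without PRP. In the fit limited to higher-mean features SLC7A5 passed (limma, adjusted p = 0.0182), with both its groups above the array median. That fit was chosen after the results were seen, and 1.01% of its genes passed as higher. Of the 21 other xenobiotic enzymes and transporters 7 were higher, with a median of -0.13. One of them, CYP3A12, was at 5.58 and 5.76 in B2, against 3.89 and 4.22 in B1, but its other feature differed by 0.005.

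The antioxidant genes gave the highest list median of all 35 lists, 0.39. SLC7A11, the cystine importer that feeds glutathione synthesis, was at 10.62 and 12.04 in B2, against 7.94 and 7.91 in B1. The B1 levels lay close to those in SVF A2 (7.38 and 8.21) and SVF A1 (7.37 and 7.80). The difference was 3.40 ± 0.38, or 10.6-fold.

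TXNRD1, thioredoxin reductase, was at 11.51 and 12.30 in B2, against 9.52 and 9.79 in B1, a difference of 2.25 ± 0.20. HMOX1, haem oxygenase, was at 10.50 and 11.50 in B2, against 9.22 and 8.89 in B1, a difference of 1.95 ± 0.35. For both genes every B2 array was above every B1 array. HMOX1 was also higher in A2 than in A1, by 0.81.

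GCLM, the modifier subunit of glutathione synthesis, differed by 1.30 ± 0.26, glutathione reductase GSR by 1.06 ± 0.27, the sulfiredoxin SRXN1 by 0.94 ± 0.19 and the catalytic subunit GCLC by 0.76 ± 0.29. KEAP1, the inhibitor of NRF2, differed by 0.49 ± 0.18. Of the 26 genes measured, 23 had a higher mean in B2. Of these, 12 reached an unadjusted p under 0.05, where 6.87% of all genes did so as higher, and 0 of the lower ones did. At least 2-fold higher in both dogs were 3, where 0.652% of all genes were. In 16 of the 26 both B2 levels were above both B1 levels, where 21% of all genes did so, and in 0 both were below, where 21.7% did. SLC7A11, TXNRD1, HMOX1 and GCLM passed in the limma fit limited to higher-mean features, with adjusted p between 0.0122 and 0.0447. Of all genes in that fit, chosen after the results were seen, 1.01% passed as higher. The list median for A2 minus A1 was -0.07. ME1, ABCC1 and EPHX1 were the 3 members with a lower mean in B2.

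**Figure D2:**
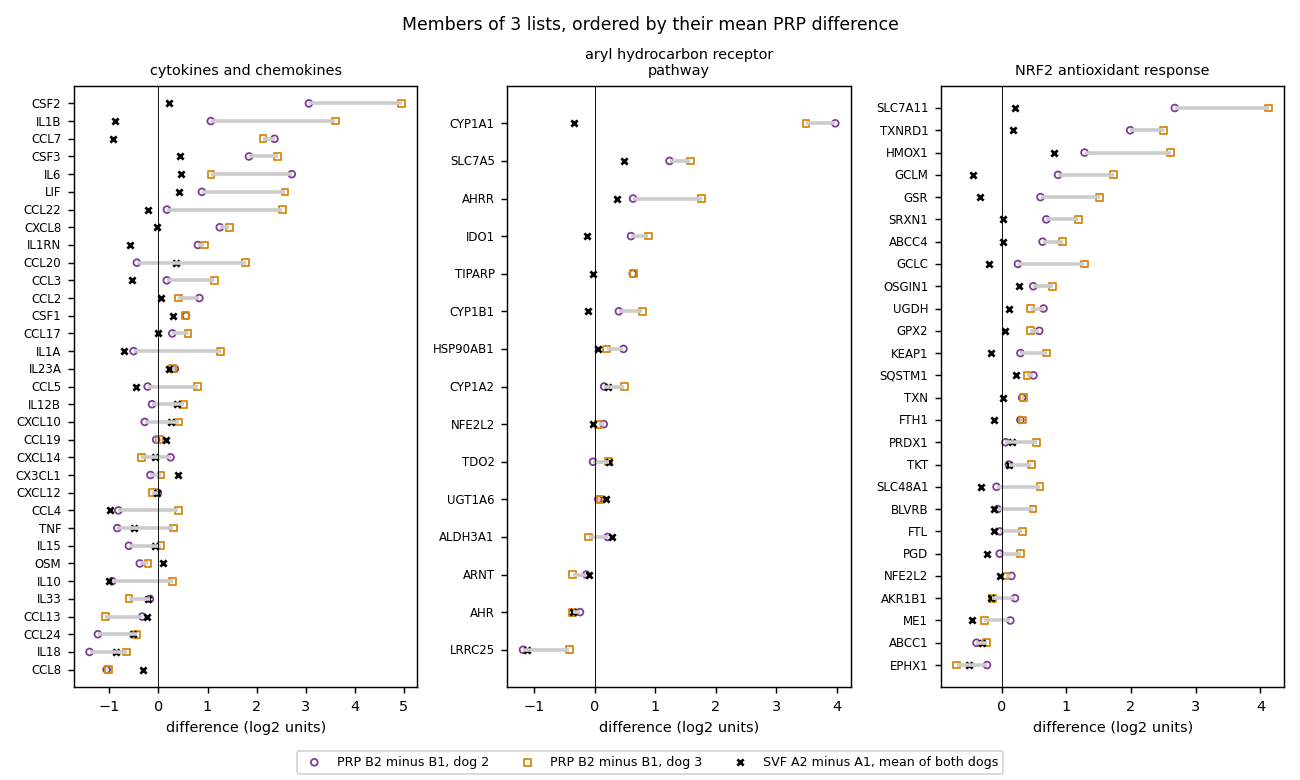
Each row is a gene of 1 of 3 lists, with its PRP B2 minus B1 difference in dog 2 (open circle) and dog 3 (open square) and its mean SVF A2 minus A1 difference (cross), all in log2 units. CYP1A1, SLC7A11, TXNRD1 and CSF2 lie beyond 1.9 units in both dogs with crosses between -0.34 and 0.21, and several cytokines split between the dogs.

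Several cytokine genes were higher in B2, while the cytokine list as a whole had 19 higher and 14 lower means. CSF2, the granulocyte-macrophage colony-stimulating factor, had levels of 7.32 and 9.91 in B2, against 4.25 and 4.95 in B1, and of 4.83 to 5.21 on the 4 SVF arrays. The difference was 4.01 ± 0.48, or 16.1-fold. CSF3, the granulocyte colony-stimulating factor, was at 9.48 and 10.71 in B2, against 7.64 and 8.28 in B1, a difference of 2.14 ± 0.21.

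CCL7, a monocyte chemoattractant, was at 11.61 and 12.77 in B2, against 9.24 and 10.64 in B1, a difference of 2.25 ± 0.16. In the unincubated samples CCL7 ran the other way in both dogs, at 7.70 and 9.83 in A2, against 8.73 and 10.68 in A1. CXCL8, which attracts neutrophils, was at 12.77 and 13.77 in B2, against 11.52 and 12.33 in B1, a difference of 1.35 ± 0.16.

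IL1B, the secreted interleukin 1 beta, was at 8.21 and 11.88 in B2, against 7.15 and 8.28 in B1. Its difference was 1.06 in dog 2 and 3.60 in dog 3, and the B2 level of dog 2 did not exceed the B1 level of dog 3. IL6 had the larger difference in dog 2, with levels of 10.07 and 10.49 in B2, against 7.36 and 9.43 in B1. LIF, a cytokine of the same family, differed by 1.73 ± 0.44 and the interleukin 1 receptor antagonist IL1RN by 0.87 ± 0.15.

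Several ligands did not share this direction. The monocyte chemokine CCL8 was at 8.82 and 8.74 in B2, against 9.87 and 9.76 in B1, a difference of -1.04 ± 0.15. IL18, an inducer of interferon gamma, differed by -1.03 ± 0.24, CCL24, an eosinophil chemokine, by -0.84 ± 0.24 and CCL13 by -0.71 ± 0.24. TNF was at 8.56 and 9.04 in B2, against 9.40 and 8.74 in B1, so the dogs disagreed. IL10 and IL1A also had opposite signs in the dogs.

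Of the 33 cytokines and chemokines measured, 19 had a higher mean in B2, 10 reached an unadjusted p under 0.05 as higher and 4 as lower. Among all genes 6.87% and 6.78% did. At least 2-fold in both dogs, 6 were higher (CCL7, CSF2, CSF3, CXCL8, IL1B and IL6), where 0.652% of all genes were, and 1 was lower (CCL8), where 0.42% were. The list median was 0.29 over both dogs, 0.41 in dog 3 and -0.05 in dog 2, so the direction of the median rests on dog 3. Both B2 levels were above both B1 levels for 10 ligands and below them for 4, where 21% and 21.7% of all genes were. In the fit limited to higher-mean features CCL7 (adjusted p = 0.00778), CSF3 (adjusted p = 0.0122), CXCL8 (adjusted p = 0.0177) and IL1RN (adjusted p = 0.0401) passed as higher and CCL8 (adjusted p = 0.0262) as lower. Of all genes in that fit, chosen after the results were seen, 1.01% passed as higher and 1.38% as lower. In the same samples the macrophage markers had a median of -0.48, and their part in the cytokine values was not tested.

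Among receptors the decoy receptor IL1R2 was at 9.94 and 11.47 in B2, against 8.14 and 8.94 in B1, a difference of 2.16 ± 0.23. IL7R, the interleukin 7 receptor chain, was at 9.79 and 11.67 in B2, against 8.58 and 9.73 in B1, a difference of 1.57 ± 0.23. In the unincubated samples A2 minus A1 averaged -0.30 for IL1R2, with opposite signs in the dogs, and -1.02 for IL7R, lower in both. CSF1R, the receptor for macrophage colony-stimulating factor, was at 9.54 and 9.65 in B2, against 11.05 and 10.80 in B1, a difference of -1.33 ± 0.17. IL10RA, which receives interleukin 10, differed by -1.25 ± 0.17.

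Of the 26 receptors, 6 reached an unadjusted p under 0.05 as higher and 5 as lower, where 6.87% and 6.78% of all genes did, with a median of 0.16. Targets and components of NF-kappaB had no common direction: 12 of 25 were higher, 13 lower, and the median was -0.03. An unadjusted p under 0.05 was reached by 8 of them as higher and by 3 as lower, where 6.87% and 6.78% of all genes did. Members that stood apart were SELE, an adhesion molecule of activated endothelium (9.72 and 10.21 in B2, against 8.23 and 8.70 in B1), and PTGS2, the inducible cyclooxygenase (11.63 and 13.27 in B2, against 10.86 and 12.30 in B1). BIRC3, an inhibitor of apoptosis, differed by 0.73 ± 0.15 and CD83, a marker of mature dendritic cells, by -0.73 ± 0.18. The interferon response list ran lower, with 17 of 24 members and a median of -0.20. At an unadjusted p under 0.05 it counted 1 higher and 6 lower, where 6.87% and 6.78% of all genes were. For A2 minus A1 it had 12 higher and 12 lower means. RSAD2, an antiviral enzyme and 1 of the 7 with a higher mean, differed by 1.32 ± 0.15.

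Several secreted matrix proteases were higher in B2 as well. MMP9, a gelatinase, was at 8.53 and 11.11 in B2, against 5.87 and 6.40 in B1, a difference of 3.69 ± 0.52. MMP3, stromelysin, was at 6.87 and 10.51 in B2, against 4.61 and 5.07 in B1, and the collagenase MMP1 was at 6.47 and 8.15 in B2, against 4.48 and 4.41 in B1. SERPINB2, a plasminogen activator inhibitor, differed by 3.13 ± 0.40.

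Within MMP9, MMP3, MMP1 and SERPINB2 the B2 array of dog 3 was always the highest of the 4 PRP arrays. These 4 were also the members at least 2-fold higher in both dogs, where 0.652% of all genes were. Of the 23 genes on that list, 15 had a higher mean in B2 and 7 reached an unadjusted p under 0.05 as higher, where 6.87% of all genes did. The list median was 0.28, and was 0.08 in dog 2 and 0.49 in dog 3. MMP9 is also a neutrophil product, and 8 of 16 neutrophil markers had a higher mean in B2, with a list median of 0.03. Only 3 of the 16 lay above the array median on all 4 PRP arrays, so that split rests largely on low levels. MPO, a granule enzyme, was at 6.20 and 6.10 in B2, against 5.61 and 5.28 in B1. The calcium-binding proteins S100A12 (5.59 and 5.75 in B2, against 6.91 and 7.10 in B1) and S100A9 (7.40 and 6.30 in B2, against 8.23 and 8.16 in B1) were lower, and the part of neutrophils was not tested.

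**Figure D3:**
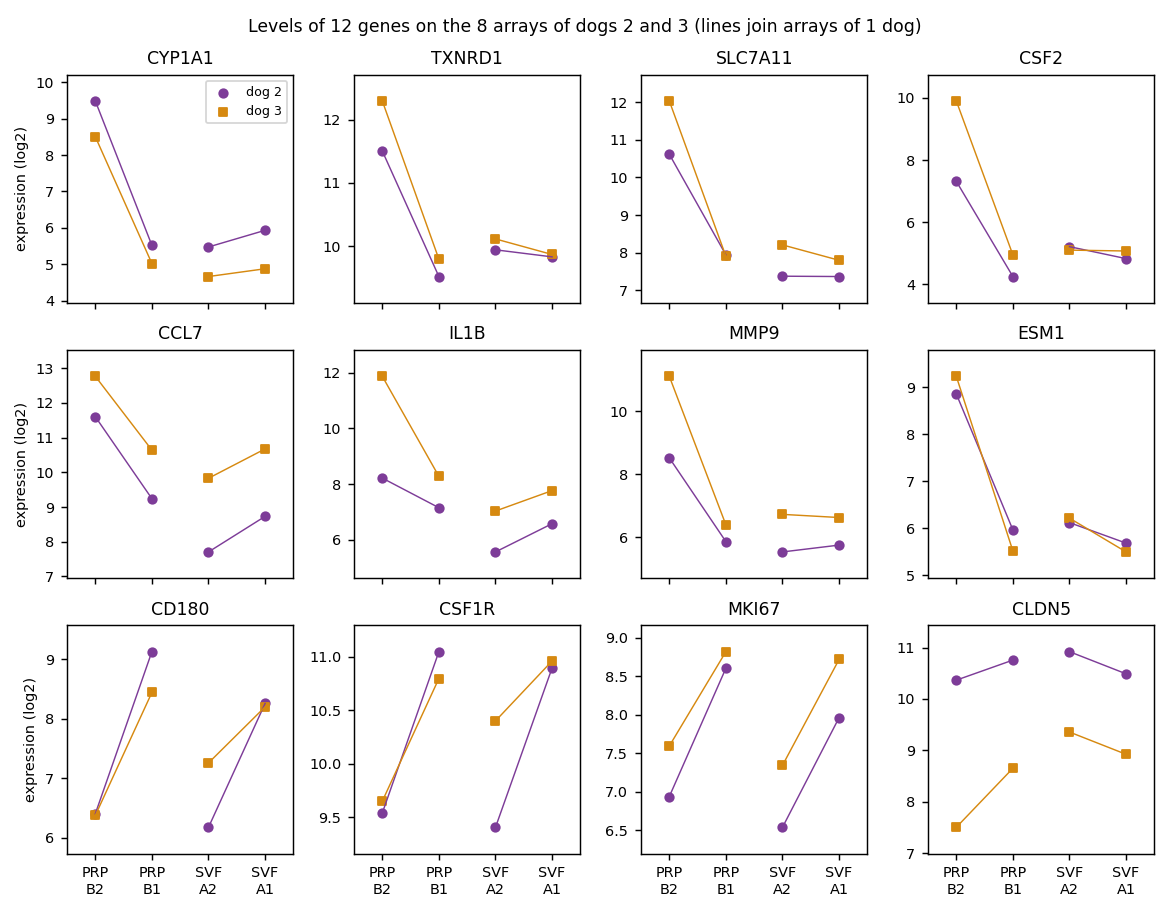
Log2 expression (y axis, own scale per panel) of 12 genes on 8 arrays, by group along the x axis in the order PRP B2, PRP B1, SVF A2, SVF A1, with circles for dog 2, squares for dog 3 and lines joining the arrays of 1 dog within a treatment. CYP1A1, SLC7A11, CSF2, MMP9 and ESM1 are high only on the PRP B2 arrays, while CD180, CSF1R and MKI67 are low on both the B2 and A2 arrays.

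Macrophage markers had lower means in B2. CD180, a Toll-like surface protein of B cells and macrophages, was at 6.40 and 6.38 in B2, against 9.13 and 8.45 in B1, a difference of -2.40 ± 0.22. It was also lower in A2 (6.18 and 7.26) than in A1 (8.26 and 8.20). Of the other genes with the smallest p among those lower in B2, PTPN6, the phosphatase SHP-1, differed by -1.55 ± 0.15, BTK, a kinase of B and myeloid cells, by -1.42 ± 0.15, the inhibitory Fc receptor FCGR2B by -1.62 ± 0.15 and the cytohesin CYTH4 by -1.97 ± 0.17. ADGRE3, an adhesion receptor of myeloid cells, JAML, an adhesion molecule of leukocytes, GPR33, LOC478984 and SLITRK6 had differences between -1.40 and -2.18. P2RY12 and CD3G, given with their lists, make up the 12.

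Of the 21 macrophage and monocyte markers, 0 had a higher mean and 21 a lower mean in B2. An unadjusted p under 0.05 was reached by 9, all lower, where 6.78% of all genes did so. Both B2 levels lay below both B1 levels in 12 of the 21, where 21.7% of all genes did. The list median was -0.48, and was -0.77 in dog 2 and -0.19 in dog 3. LYVE1, a hyaluronan receptor of resident macrophages and lymphatic endothelium, differed by -1.02 ± 0.16 and the actin-binding AIF1 by -0.94 ± 0.16. The haemoglobin scavenger CD163 was at 7.61 and 7.90 in B2, against 8.75 and 8.77 in B1. CD14, the lipopolysaccharide co-receptor, had opposite signs, at 9.66 and 11.12 in B2, against 10.44 and 10.35 in B1. The summed level of the list was 198 and 206 in B2, against 214 and 211 in B1. AIF1, CD163, CSF1R and LYVE1 passed as lower in the limma fit limited to higher-mean features, with adjusted p between 0.0215 and 0.0367. Of all genes in that fit, chosen after the results were seen, 1.38% passed as lower.

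Other immune lists were mixed. CD3G, a chain of the T cell receptor complex, was at 7.84 and 6.98 in B2, against 9.24 and 8.80 in B1, a difference of -1.61 ± 0.18, and CD3D and CD27 differed by -0.70 ± 0.15 and -0.74 ± 0.15. Over all 29 T and NK cell markers, however, 12 were higher and 17 lower, with a median of -0.06. The B cell surface gene MS4A1 was lower by 1.13, while PRDM1, a factor of plasma cells, was higher by 0.85.

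Antigen presentation genes were lower for 13 of 15 members, with a median of -0.26. For A2 minus A1, 14 of the 15 were lower, with a median of -0.34. The class II gene DLA-DOA differed by -0.70 ± 0.15 and DLA-DMB by -0.79 ± 0.23. Dendritic cell and costimulation genes had 11 higher and 10 lower means and a median of 0.004. At an unadjusted p under 0.05 they counted 2 higher and 9 lower, where 6.87% and 6.78% of all genes were. FLT3, a growth factor receptor, was at 5.73 and 5.72 in B2, against 6.84 and 6.84 in B1, and CD80, a ligand of CD28, was lower by 0.98.

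PRP brings platelets, so their transcripts were checked. PPBP, a chemokine precursor stored in platelets, was at 10.77 and 8.99 in B2, against 10.81 and 9.28 in B1, a difference of -0.16 ± 0.16. ITGA2B, the platelet fibrinogen receptor chain, differed by -0.05. P2RY12, the ADP receptor of platelets and some macrophages, RGS18, a regulator of G protein signalling, and F13A1, a clotting factor chain also made by macrophages, were 2-fold lower in B2 in both dogs. All 3 were also lower in A2 than in A1, by 1.84, 1.57 and 1.03, without any PRP. The list median was -0.16 with 4 of 13 members higher. At least 2-fold lower in both dogs were 3 members, where 0.42% of all genes were. ITGB3 and THBS1 were higher in B2, by 0.79 ± 0.15 and 0.75 ± 0.24. An unadjusted p under 0.05 was reached by 2 members as higher and 3 as lower, where 6.87% and 6.78% of all genes did.

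Cell division genes formed another lower list. MKI67, expressed by cycling cells, was at 6.94 and 7.59 in B2, against 8.61 and 8.82 in B1, a difference of -1.45 ± 0.18. KIF11 and CENPF, which act at the mitotic spindle and the kinetochore, differed by -1.64 ± 0.20 and -1.28 ± 0.15. Of the 29 genes 23 were lower, with a median of -0.33, and 12 reached an unadjusted p under 0.05. All 12 were lower, where 6.78% of all genes were lower at that threshold. For A2 minus A1 the median was -0.40, with 25 of 29 lower.

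Vascular genes differed in both directions. ESM1, a proteoglycan that endothelial cells secrete during sprouting, was at 8.86 and 9.23 in B2, against 5.96 and 5.51 in B1, a difference of 3.31 ± 0.25. ANGPT2, which loosens vessel walls, was at 9.44 and 8.20 in B2, against 8.84 and 7.02 in B1, and the endothelial transcription factor ERG was at 10.34 and 9.24 in B2, against 9.61 and 8.01 in B1. VEGFA, the growth factor for endothelium, was at 10.05 and 11.86 in B2, against 9.32 and 10.44 in B1. The lists these genes came from were mixed. Arterial, tip and Notch genes, with ESM1 and ANGPT2, had 9 higher and 7 lower means and a median of 0.02. Angiogenic factors, with VEGFA and ANGPT2, had 9 higher and 12 lower means and a median of -0.02. Among the lower members SEMA3G differed by -0.68 ± 0.20 and HGF by -1.13 ± 0.28.

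Most endothelial markers had lower means in B2. CLDN5, the tight junction claudin, was at 10.37 and 7.50 in B2, against 10.76 and 8.65 in B1, a difference of -0.77 ± 0.24. EGFL7, a matrix protein of vessels, was at 9.13 and 6.83 in B2, against 9.63 and 7.75 in B1, and MMRN2, which binds endothelial matrix, differed by -0.54 ± 0.15. The dogs differed more than the samples here, since the summed level of the endothelial markers was 288 and 245 in B2 of dogs 2 and 3, against 289 and 253 in B1. Of the 29 markers, 6 were higher in mean and 23 lower, and 1 and 5 reached an unadjusted p under 0.05 (6.87% and 6.78% of all genes). For 0 of them were both B2 levels above or below both B1 levels, where 21% and 21.7% of all genes were. The list median was -0.18. ERG was the 1 marker that passed in the fit limited to higher-mean features (limma, adjusted p = 0.0472). That fit was chosen after the results were seen, and 1.01% of its genes passed as higher. PECAM1, the common endothelial adhesion molecule, differed by 0.13 ± 0.17.

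Without PRP or incubation the same endothelial list had the opposite sign, with 24 of 29 markers higher in A2 than in A1 and a median of 0.21. The median of the difference between the contrasts was -0.39, and 9 of the 29 genes had an unadjusted p under 0.05 for it, where 8.7% of all genes did. EGFL7 differed by -1.31 ± 0.27 between the contrasts (adjusted p = 0.385, limma) and CLDN5 by -1.20 ± 0.30 (adjusted p = 0.450, limma). Neither passed the test.

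Pericyte and smooth muscle markers had 7 higher and 16 lower means and a median of -0.20, which was -0.39 in dog 3 and 0.0011 in dog 2. KCNJ8, a potassium channel of pericytes, was at 7.20 and 5.20 in B2, against 7.84 and 5.71 in B1. PLN, phospholamban, was at 6.16 and 5.02 in B2, against 6.70 and 5.60 in B1. MYH11, smooth muscle myosin, differed by 0.32 ± 0.16.

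**Figure D4:**
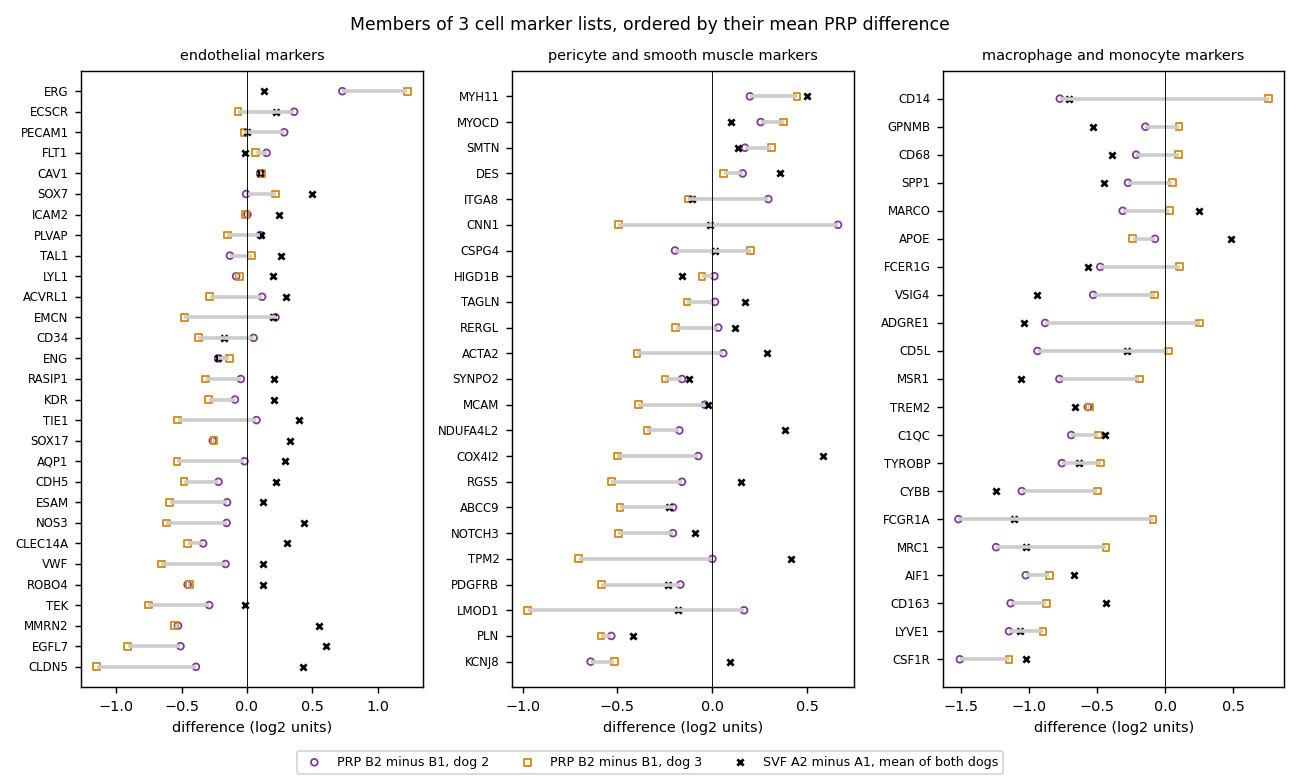
Each row is a marker of 1 of 3 cell classes, with its PRP B2 minus B1 difference in dog 2 (open circle) and dog 3 (open square) and its mean SVF A2 minus A1 difference (cross), all in log2 units. Most endothelial crosses lie right of 0 and most of their PRP points left of it, while for macrophage markers both kinds lie mainly left.

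Most heat shock genes had higher means in B2. Of 20, 16 had a higher mean, with a median of 0.26, and 8 reached an unadjusted p under 0.05 as higher, where 6.87% of all genes did. Both B2 levels were above both B1 levels in 10, where 21% of all genes were. Without PRP or incubation 16 of the 20 were higher in A2 than in A1, with a median of 0.14. CRYAB, a small chaperone, was at 12.03 and 11.42 in B2, against 11.15 and 10.76 in B1, and HSPA4 differed by 0.70 ± 0.15. The list for unfolded protein and integrated stress responses had 15 of 23 higher. An unadjusted p under 0.05 was reached by 6 as higher and 2 as lower, where 6.87% and 6.78% of all genes did. CHAC1, which breaks down glutathione, was at 8.94 and 8.92 in B2, against 8.02 and 8.04 in B1. It was also higher in A2 than in A1, by 0.68. ASNS, asparagine synthetase, differed by 0.92 ± 0.20.

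Immediate early genes, which respond first to a stimulus, were lower for 20 of 26 members with a median of -0.41. An unadjusted p under 0.05 was reached by 1 as higher and 8 as lower, where 6.87% and 6.78% of all genes did. Without PRP or incubation 19 of the 26 were higher in A2 than in A1, with a median of 0.04. KLF4 was at 9.85 and 9.83 in B2, against 10.54 and 10.67 in B1, and EGR2 and NR4A1 differed by -0.91 ± 0.22 and -0.70 ± 0.17. FOSL1, a partner in the AP-1 factor, was 1 of the 6 with a higher mean, at 10.26 and 11.35 in B2, against 8.85 and 10.12 in B1.

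Stromal markers had 20 of 24 lower means with a median of -0.14, and adipocyte markers 15 of 22 with a median of -0.12. In A2 against A1, 21 of 24 and 20 of 22 were lower, with medians of -0.08 and -0.25. Extracellular matrix genes had 25 of 29 lower and a median of -0.10. At an unadjusted p under 0.05 0 of them were lower, where 6.78% of all genes were. Their A2 minus A1 median was -0.13, with 24 of 29 lower. Hypoxia and glycolysis genes had 14 higher and 12 lower means and a median of 0.05, and among them the glucose transporter SLC2A1 and the hexokinase HK2 were higher by 1.27 ± 0.26 and 0.98 ± 0.15. Of 8 metal response genes 4 were higher and 4 lower, with a median of 0.004. Among these the zinc and iron importer SLC39A14 was at 10.58 and 12.40 in B2, against 9.31 and 10.77 in B1, and the zinc exporter SLC30A1 differed by -0.44 ± 0.16.

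**Figure D5:**
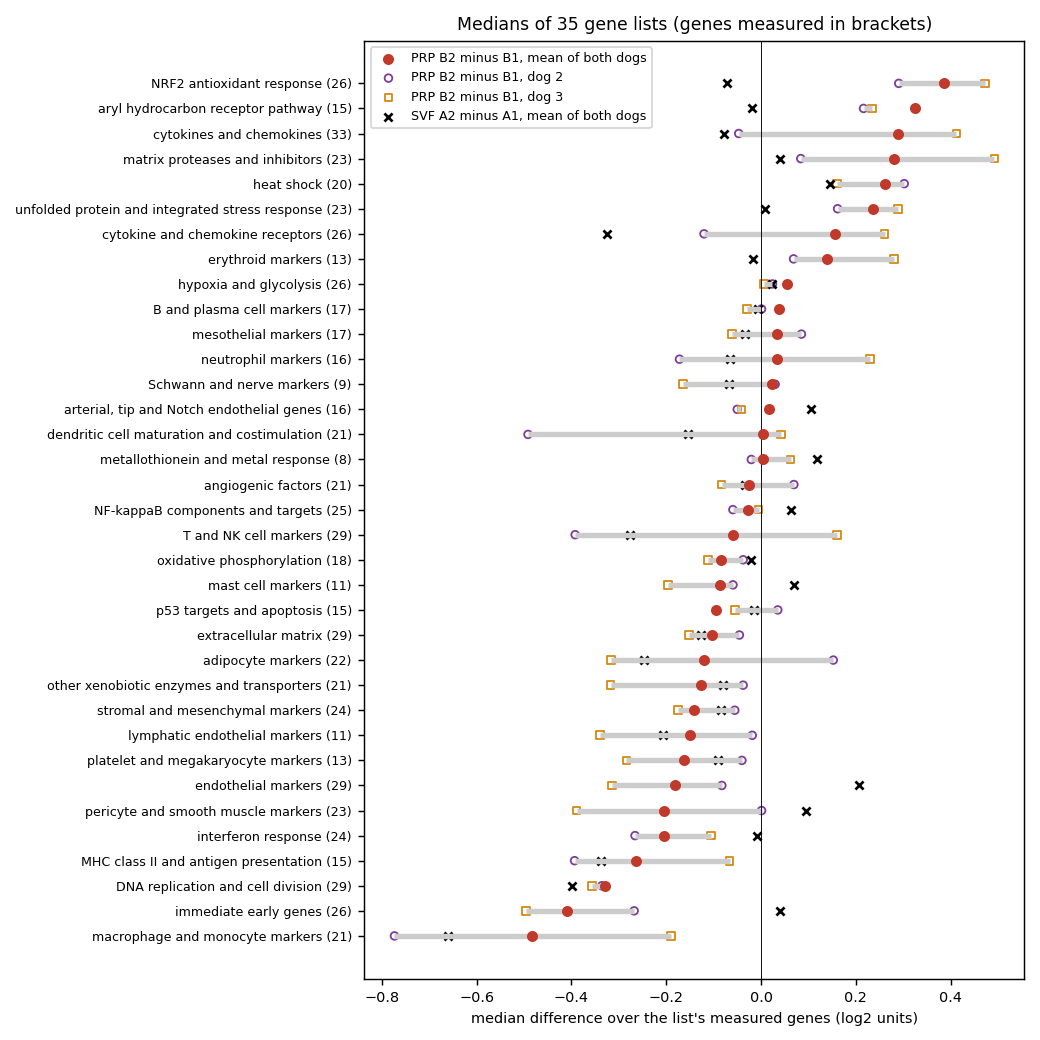
Rows are 35 gene lists ordered by the median PRP B2 minus B1 difference of their measured genes (red, log2 units, both dogs), with dog 2 (open circle), dog 3 (open square) and the median SVF A2 minus A1 difference (cross). NRF2 genes are highest at 0.39 and macrophage markers lowest at -0.48, with crosses at -0.07 and -0.66.

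The last question was whether the number difference was there before PRP and incubation. For A2 minus A1, 0 features passed (limma, smallest adjusted p = 0.127, 5344 at an unadjusted p under 0.05). Over genes the PRP and SVF differences had a Pearson r of 0.364 and a Spearman rho of 0.334, across genes and from separate arrays.

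The same direction was looked for in the unincubated samples. Of the 67 genes at least 2-fold lower in B2 in both dogs, 65 were also lower in A2 in both dogs, where 39.7% of all genes were, with a median A2 minus A1 of -0.87. Of the 104 genes at least 2-fold higher, 65 were higher in A2 in both dogs, where 27.6% of all genes were, with a median of 0.26 beside their median PRP difference of 1.70. Without PRP 2 of these 104 were also 2-fold higher in both dogs, where 0.0314% of all genes were, and 14 of the 67 were 2-fold lower, where 0.332% were. All 12 lower named genes were lower in A2 in both dogs, and CYP1A1, CCL7, AQP9, PTGER2 and DCSTAMP of the 12 higher ones were lower in A2 in both dogs.

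The test of the difference between the contrasts called 0 features (limma on 8 arrays, 0% called, smallest adjusted p = 0.155), with 3247 features and 8.7% of genes at an unadjusted p under 0.05. CYP1A1 and CCL7 were among those at the smallest adjusted p. Their PRP difference exceeded their SVF difference by 4.07 ± 0.25 and by 3.18 ± 0.21 log2 units. AQP9, a water and glycerol channel, exceeded it by 2.90 ± 0.27, DCSTAMP, a membrane protein of fusing myeloid cells, by 3.03 ± 0.32 and PTGER2, a prostaglandin E2 receptor, by 2.16 ± 0.24. For MKI67, CSF1R and P2RY12 the contrasts differed by -0.05, -0.30 and 0.06. Limited to the 16188 features with a mean above the median over the 8 arrays, 27 features passed. Of these, 11 had a PRP difference above the SVF difference and 16 had one below it. That limit, too, was chosen after the results were seen.

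Others of the 12 genes with the smallest p had no link to these lists. BAIAP2L1, an actin-binding membrane scaffold, was at 8.21 and 8.78 in B2, against 5.00 and 5.27 in B1, a difference of 3.36 ± 0.17. SAXO1 and DNAH12, proteins of the axoneme of cilia, differed by 2.49 ± 0.15 and 2.54 ± 0.17, and KCTD4 by 2.40 ± 0.15. BAIAP2L1, SAXO1 and DNAH12 were also higher in A2 than in A1 in both dogs, by 0.59, 1.34 and 1.12.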

How the data were processed

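Total RNA of each sample (6 ug) was biotin-labelled for Affymetrix arrays, per the labels' protocols. All deposited values lie in a range that fits log2 expression levels. Partek is the tool named in the submitters' processing notes. The sources used here do not say how the arrays were normalized. No filter was applied. Each array gives 1 value per feature and no detection call, so the number of arrays limits the precision.

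Of the features, 16545 named 1 gene and 370 several. Where several features named a gene, the one highest on average over the 8 arrays of dogs 2 and 3 stood for it. Of the 15947 genes, 15268 matched the RefSeq gene table by identifier and 0 symbols differed.

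The fit used limma 3.58.1 in R 4.3.3 on the 4 PRP arrays, with number and dog as terms (lmFit and eBayes, default settings, prior degrees of freedom 3.30). A second fit on 8 arrays had a mean for each dog and treatment and a number effect in each treatment. Pairing by dog comes from the titles, and the dogs' number differences had a Pearson r of 0.597 over genes. Thresholds were an adjusted p of 0.05 over all features and a 2-fold difference in both dogs.

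Members and lists were chosen with earlier results of these data known. Of 772 list genes, 679 were measured. Genes named were up to 12 per direction with the smallest p among those with the same sign in both dogs, a mean difference of at least 1 log2 unit and a highest array above its median, up to 4 per list with the smallest p, and the whole AHR list. Other genes named were chosen after their values were seen. Promoter sequences were not used here. Alternatives covered normalization, filters, the variance model, the block, the arrays in the fit and the feature per gene.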

Additional observations from a re-analysis of the deposited data

How the results depend on the processing

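With the 4 PRP arrays, 0 features passed after centring each array, after repeated quantile normalization and with 8 arrays in the fit. The count was 62 with features whose highest array lay above the median, 348 with features whose mean did (prior degrees of freedom 5.31, against 3.30 over all features), 34 with a mean-variance trend and 26 with a trend and robust prior. With the SVF arrays in the fit, leaving out 1 PRP array gave 0 to 56 features, against 0 with all 8 arrays (4814 at an unadjusted p under 0.05). In each of these leave-out fits the PRP difference comes from 1 dog's pair of arrays and the residual spread from the SVF arrays. Features passed only when a dog 2 array was left out, so they rest on dog 3 alone. Such a count cannot show whether the dogs repeat a difference. The filters on the highest array and on the mean both retain genes that are high in only 1 group. CYP1A1, BAIAP2L1, ESM1 and MMP9 are among them. At an unadjusted p under 0.05 the count was 2383 with no replicate block for the dog and 2563 to 4501 leaving out 1 array of the 8, and without the block 0 features passed adjustment. For the test between PRP and SVF differences the counts were 7 and 27 with these filters, 1 with the trend and 4 with the robust trend. Its unadjusted count was 1850 with no replicate block and 2108 to 3561 leaving out 1 array. Features 2-fold apart in both dogs numbered 235 after the filter on the highest array and 1520 at 1.5-fold, against 369. The cytokine median was -0.0471 to 0.412 leaving out 1 array. The AHR list median was 0.239 after quantile normalization, 0.467 with the filter on the highest array and 0.216 to 0.233 leaving out 1 array.

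Over 129 genes, 1376 of 1509 values under the alternatives kept direction and side of the threshold, 127 passed adjusted p 0.05 and 6 turned sign. The sign turned for ALDH3A1 (-0.0589 after quantile normalization, -0.0993 on leaving out a dog 2 array), UGT1A6 (-0.0088 after quantile normalization) and TDO2 (-0.0251 on leaving out a dog 3 array). The causes were not tested. Genes below the array medians, CSF2 in B1 and CYP1A1 in B1 among them, have ratios that depend on levels near the low end of the scale.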
